A study of Mus musculus with 24 samples.

Results

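The genes followed here, in 24 mouse hearts, are 8 that mark B cells and the antibody-secreting plasma cells they become. They are Cd79a, Cd79b, Ms4a1, Pax5, Ighm, Igkc, Jchain and Mzb1, and all 8 symbols were matched to an Ensembl identifier among the 41388 genes of the count table. The hearts came from male wild type Balb/c mice (BALB/cAnNCrl in the study's methods), 8 to 10 weeks old when immunized. Mice with experimental autoimmune myocarditis (EAM) received a peptide of the cardiac myosin heavy chain emulsified in supplemented complete Freund's adjuvant (SCFA) on days 0 and 7, and pertussis toxin (PTX) on day 0. Control mice received SCFA with PBS on the same days and the same PTX, so that adjuvant and toxin were shared by both arms and the peptide was the difference. Day 10 (D10), day 15 (D15) and day 21 (D21) were each represented by 4 EAM mice and 4 controls, and RNA came from a portion of each heart. Hearts for RNA had been chosen, as far as possible, for the presence of inflammation, so that the EAM groups do not represent every immunized mouse.

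A B cell carries its antibody on the surface as a receptor, which signals through the paired proteins CD79A and CD79B. Pax5 is the transcription factor that holds cells in the B lineage, and Ms4a1 encodes CD20, a surface protein of mature B cells that plasma cells lose. When a B cell becomes a plasma cell it silences Pax5 and Ms4a1 and turns to secretion. It then transcribes its immunoglobulin genes at a very high rate, among them Ighm (the constant part of the IgM heavy chain) and Igkc (the constant part of the kappa light chain). Jchain encodes the joining chain that links IgM and IgA units into polymers, and Mzb1 encodes a chaperone of the endoplasmic reticulum that helps IgM to assemble. In autoimmune myocarditis, antibodies against cardiac myosin accompany a T cell driven disease.

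Total counts per library lay between 15814863 and 24980864. Levels are given as CPM (counts scaled to library size) after TMM scaling over the 24 libraries, with factors between 0.917 and 1.13. Before this scaling, 3 reads, the limit that a count of 0 allows, correspond to between 0.120 and 0.190 CPM. At D21 the 4 EAM libraries carried another library code than the 20 other libraries, so that at this day EAM and library code cannot be told apart. The D21 EAM libraries also held little of some transcripts. Myl7, a myosin light chain gene of the atria, was at 0.648, 0.6, 10.5 and 0.506 CPM against 387 to 613 CPM in the D21 control hearts. Adipoq, an adipocyte hormone gene, had 2, 11, 0 and 0 reads against 45 to 149. The part of the D21 EAM libraries' different content in the results at D21 was not tested. The study was bulk sequencing, in which a change in the number of cells of a type and a change in RNA per cell cannot be told apart.

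In the GENCODE M21 annotation of GRCm38, the receptor genes lie at chr7:24897381-24902197 on the plus strand (Cd79a) and chr11:106311341-106314762 on the minus strand (Cd79b). Ms4a1 is at chr19:11249675-11266241 and Pax5 at chr4:44524757-44710487, both on the minus strand. Ighm is at chr12:113418558-113422730 on the minus strand and Igkc at chr6:70726435-70726966 on the plus strand. Jchain is at chr5:88519809-88527891 on the minus strand. The values are counts over the annotated exons. Of the stretches of 75 bases, the read length, in the transcripts of Cd79a, 4.48% also occur in another annotated gene, and none do for Cd79b, Ms4a1, Pax5, Ighm, Igkc and Jchain. Ms4a1 and Pax5 overlap genes annotated on the opposite strand, and Pax5 also overlaps Mir5120, annotated on its own strand. Since no source used here states the strand setting of the counting, reads of both strands could not be separated for these 2.

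Sequences upstream of the transcription start were held by the RefSeq table used here (GRCm38.p6, 250 bases before to 50 after the start) for 3 of the 8 genes, Cd79a, Pax5 and Jchain. A stretch of Cd79a and a stretch of Jchain are shown because these 2 genes stand for the patterns described below, a receptor gene that was high in few hearts and a secretion gene that was high in all EAM hearts from D15. Capitals mark matches, on either strand, to GAGGAA (a core recognized by ETS factors such as PU.1) or CAGGTG (an E-box).
Cd79a, chr7:24897297-24897396, plus strand, 200 to 101 bases before the RefSeq start: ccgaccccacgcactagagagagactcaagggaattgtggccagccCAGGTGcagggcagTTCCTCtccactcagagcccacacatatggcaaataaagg
Jchain, chr5:88527887-88527987, minus strand, from 90 bases before the RefSeq start to base 11 after it: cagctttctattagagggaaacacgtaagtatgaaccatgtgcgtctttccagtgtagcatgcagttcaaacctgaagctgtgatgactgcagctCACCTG
The RefSeq start of Cd79a lies 116 bases inside the GENCODE gene given above, and that of Jchain 6 bases outside it. These letters are common. GAGGAA occurred in 28.3% and CAGGTG in 20.2% of the 32851 sequences of the same length in the table. The octamer ATGCAAAT, found in 1.74% of them, and the palindrome bound by EBF1, found in 0.904%, had no match in the windows of the 3 genes. These matches are descriptions of letters and not of bound sites.

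In control hearts the 8 genes were low, with 1 exception. Per kilobase of exon, Ighm was highest at D21, at 9.63 ± 1.33 CPM per kb (SD, n = 4), followed by Igkc at 1.43 ± 0.292, Mzb1 at 0.891 ± 0.262, Cd79b at 0.43 ± 0.121 and Cd79a at 0.347 ± 0.096. The neighbours Cd79b and Cd79a differed by less than their spread. Jchain was at 0.116 ± 0.052, Ms4a1 at 0.0347 ± 0.0143 and Pax5 at 0.00853 ± 0.00747 CPM per kb. Ighm thus exceeded the light chain gene in control hearts, with 341 to 429 reads per D21 control library against 12 to 18 reads of Igkc. In D21 EAM hearts the order of the means changed at the top, with Igkc at 93.5 ± 123 and Ighm at 38.72 ± 49.6 CPM per kb. The spread among hearts was larger than either mean. Within each of these hearts Igkc was above Ighm, at 276, 24.3, 21.8 and 51.5 against 113, 15.3, 10.1 and 16.4 CPM per kb in replicates 1 to 4. Jchain, at 7.26 ± 9.78 CPM per kb, moved from the sixth place in control hearts to the third. The value of Mzb1 (chr18:35647267-35649367, minus strand) is uncertain at every day, since 622 of the 1209 stretches of 75 bases in its transcripts (51.4%) also occur in 1 other annotated gene.

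**Figure D1:**
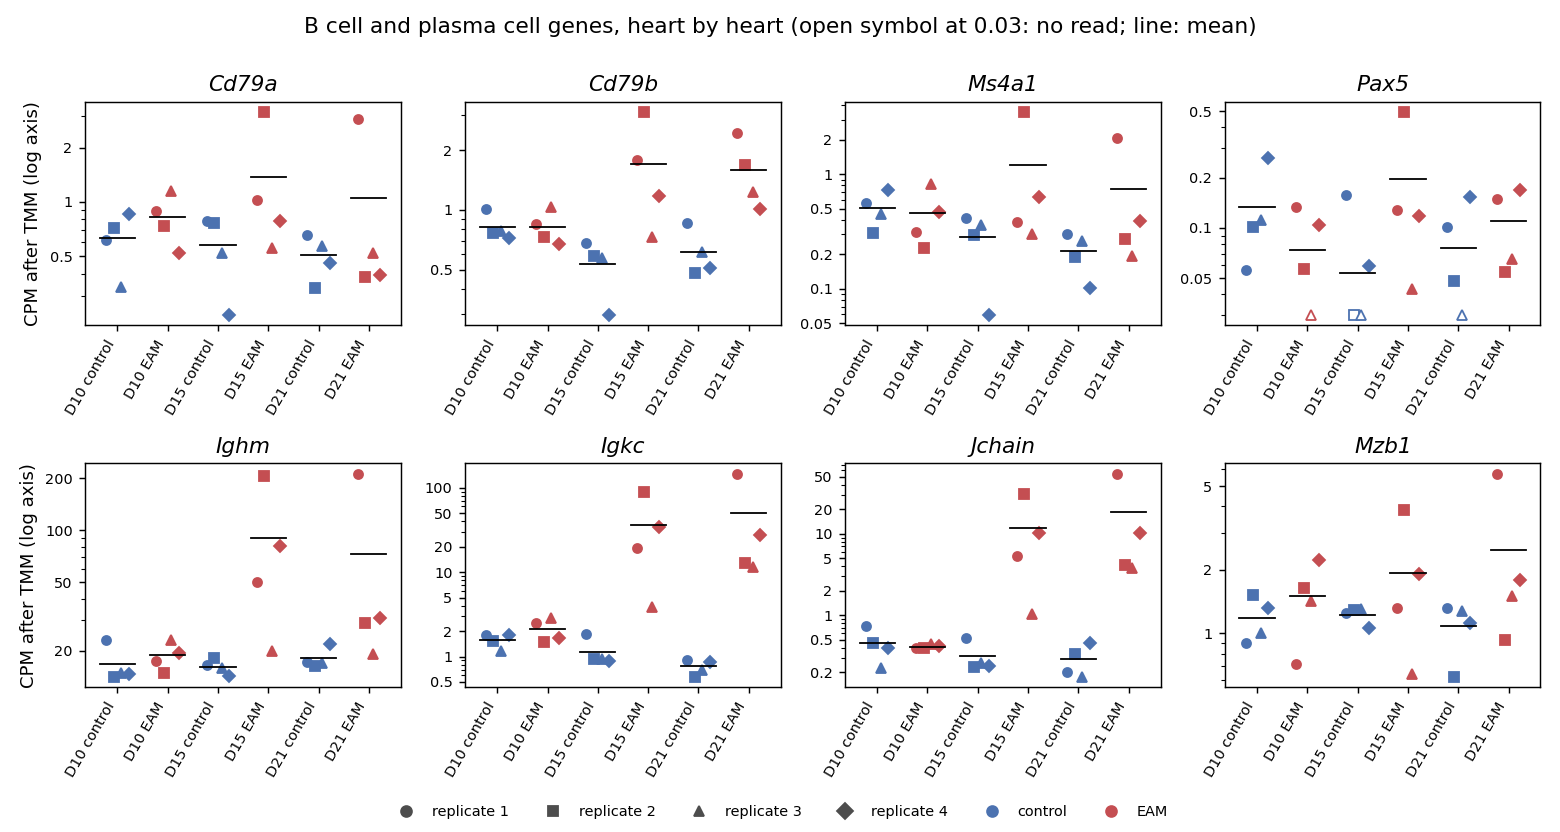
CPM after TMM scaling (log axis) of each of the 8 genes in each of the 24 hearts, controls in blue and EAM in red, with a symbol for each replicate number, a line at the group mean, and open symbols for hearts without a read. Igkc and Jchain are above all controls in each of the 8 EAM hearts of D15 and D21, whereas Cd79a and Ms4a1 are above 2 CPM in D15 EAM replicate 2 and D21 EAM replicate 1 alone.

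At D10, 3 days after the second immunization, none of the 5 genes that could be tested was induced. Igkc was at 2.49, 1.47, 2.85 and 1.66 CPM in EAM replicates 1 to 4, and at 1.79, 1.53, 1.17 and 1.78 CPM in the controls. Jchain lay between 0.395 and 0.438 CPM in EAM and between 0.224 and 0.729 CPM in control hearts. The 2 groups overlapped for each of the 8 genes, and for the 5 tested this compares with 4.24% of all genes whose EAM hearts were all above the controls. Those 5 genes had enough reads to be tested (at least 10 in at least 4 of the 8 libraries), while Ms4a1, Pax5 and Jchain had not. Induced is used here for a gene at least 2-fold higher in EAM hearts with an FDR (Benjamini-Hochberg) below 0.01. No gene of the table passed this at D10 by edgeR's quasi-likelihood test, that is 0% of 15029 genes tested. At an unadjusted p under 0.05 the 5 genes gave 0 calls, where 15.3% of all genes did, and DESeq2, limma-voom and edgeR's likelihood ratio test gave 0 calls for them as well. D10 EAM replicate 1 had the most T cell transcripts at D10. Its summed level of 12 T cell markers, in which the most read markers weigh most, was 3.02-fold that of the controls. That of 8 macrophage markers was 3.29-fold. Jchain was at 0.888-fold, Ighm at 1.05-fold and Igkc at 1.59-fold of the control mean, and Igkc was above all controls. Variable genes, described below, had 61 reads in this heart and 31 to 41 in the D10 controls. Summed over 14 coreceptor and B cell surface genes, many also read in myeloid cells, it had 103 CPM against 19.4 to 29.8 CPM in the controls.

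At D15 the antibody genes were induced in EAM hearts. Igkc was at 19.1, 88.0, 3.86 and 33.8 CPM in EAM replicates 1 to 4 and at 1.83, 0.937, 0.936 and 0.885 CPM in the controls. Every EAM heart was above every control, and the EAM hearts spanned 22.8-fold among themselves. Its log2 fold change was 4.98 (standard error 0.93, adjusted p = 8.8e-04, edgeR's quasi-likelihood test). Jchain was at 5.32, 30.4, 1.03 and 10.2 CPM in EAM and at 0.522, 0.234, 0.26 and 0.236 CPM in control hearts. The groups did not overlap and the order of the EAM hearts was that of Igkc, from replicate 2 over 4 and 1 to 3. The log2 fold change of Jchain was 5.21 (standard error 1.07) with an adjusted p of 0.00167 by edgeR. It lay between 4.15 and 5.62 with 1 library left out. Only 1 D15 control reached 10 reads of Jchain, so that the gene passed the filter mainly through the EAM hearts. Ighm, already present in controls at 14.3 to 18.1 CPM, was at 50.4, 207, 20.1 and 81.5 CPM in EAM hearts. The same order held, with replicate 3 just above the controls, and the log2 fold change was 2.48 (standard error 0.60, adjusted p = 0.00418, edgeR). Leaving out any 1 of the 4 controls ended the call, the adjusted p being between 0.0121 and 0.0142 by edgeR. With 1 library left out the log2 fold change of Ighm lay between 1.69 and 2.85.

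Of the genes of the B cell itself, Cd79b was induced at D15, Cd79a did not pass, and Ms4a1 and Pax5 were too low to test. Cd79b was at 1.79, 3.12, 0.728 and 1.18 CPM in EAM and at 0.679, 0.586, 0.572 and 0.295 CPM in control hearts. The groups did not overlap, and its log2 fold change of 1.68 (standard error 0.48) passed narrowly, with an adjusted p of 0.00966 by edgeR. Leaving out EAM replicate 1, 2 or 4 or any control ended the call, and the adjusted p by edgeR then lay between 0.0108 and 0.0287. Cd79a, its partner in the receptor, was at 1.02, 3.16, 0.557 and 0.784 CPM in EAM hearts and between 0.236 and 0.783 CPM in controls. Replicate 2 stood far above the highest control, replicate 1 slightly above it, replicate 4 was level with it and replicate 3 lay within the range of the controls. The gene did not pass (log2 fold change 1.29, adjusted p = 0.0801, edgeR). With 1 library left out its log2 fold change lay between 0.48 and 1.58. Of Ms4a1, EAM replicate 2 had 99 reads, the 3 other EAM hearts had 7 to 16 and the controls 1 to 8. Of Pax5 it had 14 reads, the others 1 to 3 and the controls 0 to 3. Neither reached the filter. Against the 12 control hearts of the 3 days together, Ms4a1 could be tested and was induced at D15 (log2 fold change 1.90, adjusted p = 0.00299, edgeR), as was Cd79a (1.31, adjusted p = 0.00289). In that setting 6 of 7 genes tested and 17.6% of all genes were induced. Mzb1 was at 1.32, 3.87, 0.643 and 1.92 CPM in EAM hearts, on both sides of the controls' 1.06 to 1.3 CPM, and did not pass (log2 fold change 0.69, adjusted p = 0.208, edgeR).

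In all, 4 of the 6 genes tested at D15 were induced, 2 did not pass, and 2 were too low to test. Over all genes, 18.1% of 15693 were induced at this day and 12.9% were lower by the same limits. The median log2 fold change of the 6 genes was 2.08 and that of all genes 0.016. All 4 EAM hearts were above all 4 controls for 4 of these 6 genes, which was the case for 35.6% of all genes tested. limma-voom called none of the 6, with adjusted p of 0.0594 for Igkc and 0.0677 for Jchain. Without EAM replicate 2, the heart highest in every one of the 8 genes, 3 of them were still induced, and Igkc had a log2 fold change of 4.07, the lowest value with 1 library left out.

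**Figure D2:**
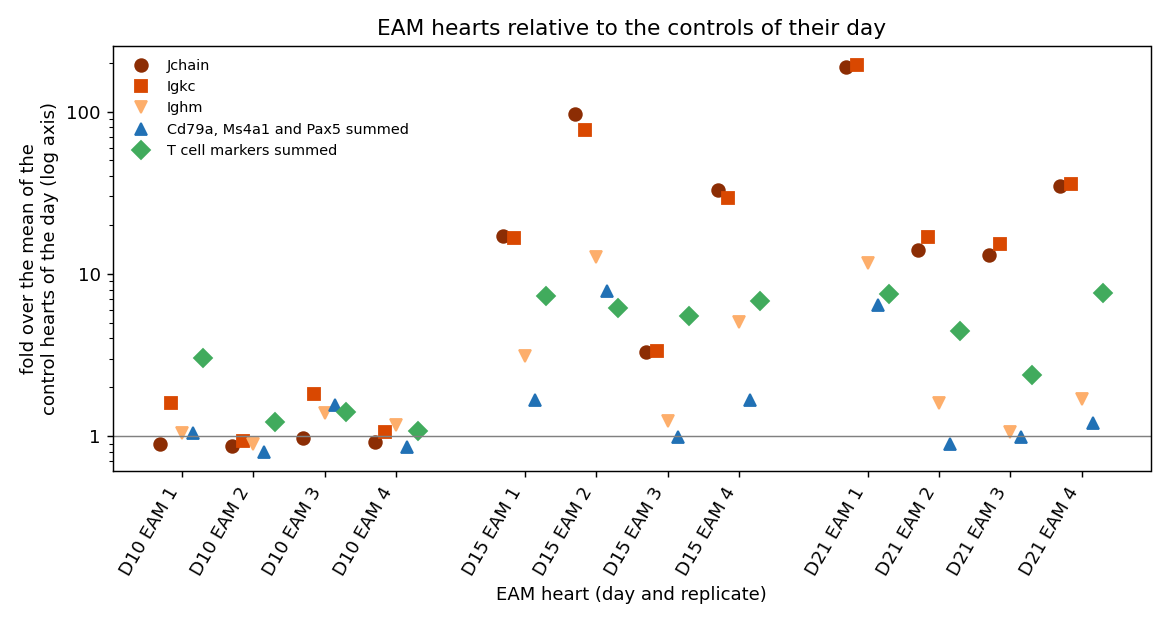
Level in each EAM heart divided by the mean of the 4 control hearts of its day (log axis, line at 1), for Jchain, Igkc, Ighm, the sum of Cd79a, Ms4a1 and Pax5, and the sum of 12 T cell markers. At D15 the T cell sum lies between 5.49 and 7.33 in all 4 hearts while Igkc lies between 3.36 and 76.8. The sum includes Cd28, which was no higher in EAM hearts, and the median log2 fold change of the single markers at D15, 4.34, was a larger change.

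The spread of the antibody genes among the D15 EAM hearts is set beside that of T cell markers as a description, with no test. The summed level of the 12 T cell markers was 7.33, 6.12, 5.49 and 6.79-fold that of the controls in replicates 1 to 4, a range of 1.34-fold. Taken singly, the 12 markers ranged from 1.22-fold (Cd5) to 2.30-fold (Cd8a) among these hearts, and Cd28 alone was no higher in EAM hearts than in controls. The median log2 fold change of the 12 markers was 4.34, a larger change than that of the sum, which includes Cd28. The fold of the sum is thus not that of a typical T cell marker. For 8 macrophage markers the range was 1.46-fold. Igkc ranged over 22.8-fold, Jchain over 29.5-fold, Ighm over 10.3-fold, and the sum of Cd79a, Ms4a1 and Pax5 over 7.97-fold in the same 4 hearts. D15 EAM replicate 3, the heart lowest in Igkc, was also the lowest in T cell markers, but replicate 2, the highest in Igkc, had less of the T cell markers than replicates 1 and 4. The other days differed from this. At D10 the T cell sum ranged over 2.81-fold among the EAM hearts, more than Igkc (1.94-fold) or Jchain (1.11-fold). At D21 it ranged over 3.23-fold and the macrophage sum over 3.36-fold, with 12.7-fold for Igkc and 14.3-fold for Jchain.

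At D21 Igkc and Jchain were induced, Ighm, Cd79b and Mzb1 did not pass, and Cd79a, Ms4a1 and Pax5 were too low to test. Igkc was at 147, 12.9, 11.6 and 27.4 CPM in EAM hearts and at 0.911, 0.574, 0.701 and 0.867 CPM in the controls. The groups were far apart, and replicate 1 was above the other EAM hearts (log2 fold change 6.04, standard error 1.01, adjusted p = 0.00679, edgeR's quasi-likelihood test). Jchain was at 54.9, 4.09, 3.84 and 10.2 CPM in EAM hearts and between 0.175 and 0.459 CPM in controls. Its log2 fold change was 5.97 (standard error 1.11, adjusted p = 0.00833, edgeR). No control heart reached 10 reads of Jchain at D21, so that it passed the filter through the EAM hearts alone. Both calls were lost without any 1 of the controls, with adjusted p between 0.0243 and 0.0359 by edgeR, and that of Igkc also without EAM replicate 2, at 0.0119. Without any 1 of the EAM hearts Jchain fell under the filter and could not be tested, so that its call held in no fit that left out a library.

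Ighm was at 213, 28.9, 19.1 and 30.9 CPM in the D21 EAM hearts and at 17.3, 16.4, 17.1 and 21.9 CPM in the controls. Replicate 3 lay within the range of the controls, and the gene did not pass (log2 fold change 2.03, adjusted p = 0.0644, edgeR). Without EAM replicate 1 the log2 fold change of Ighm was 0.56 and that of Igkc 4.53. Cd79b was at 2.44, 1.69, 1.24 and 1.01 CPM in EAM and at 0.478 to 0.861 CPM in control hearts. The groups did not overlap, yet at a log2 fold change of 1.39 it missed the limit (adjusted p = 0.0175, edgeR). DESeq2 called it, with an adjusted p of 0.00331. Cd79a and Ms4a1 were high in replicate 1, at 2.89 and 2.09 CPM, and in the other 3 EAM hearts they lay between 0.382 and 0.521 CPM and between 0.195 and 0.393 CPM. The controls were at 0.335 to 0.658 CPM of Cd79a and 0.102 to 0.304 CPM of Ms4a1. Pax5 had at most 3 reads in any D21 heart. Mzb1 was at 5.73, 0.927, 1.5 and 1.8 CPM in EAM hearts and between 0.622 and 1.32 CPM in controls (log2 fold change 1.22, adjusted p = 0.119, edgeR).

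Of the 8 genes, 5 could be tested at D21 and 2 of them were induced, against 4.13% of 15266 genes, with 0 of the 5 and 1.16% of all genes lower. Jchain is counted here although its EAM hearts alone brought it into the test. Their median log2 fold change was 2.03 and that of all genes -0.0064. At an FDR under 0.05, 3 of the 5 were induced, Cd79b in addition, and 9.3% of all genes. No overlap between the groups was seen for 3 of the 5, and for 16.5% of all genes tested. limma-voom called none of the 5. Against the 12 control hearts of the 3 days together, 5 of 6 genes tested were induced, Ighm, Cd79b and Mzb1 in addition, and 10.1% of all genes.

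The change of the EAM effect between days was tested directly in a fit of all 24 libraries, in which the control hearts of D15 enter both comparisons. From D10 to D15 the effect on Igkc rose by 4.51 on the log2 scale (standard error 1.21, adjusted p = 0.00619, edgeR's quasi-likelihood test). It was the 1 gene called of the 7 tested, where 5.38% of 16318 genes were called higher and 7.35% lower. At an FDR under 0.05 it was 4 of the 7, and 9.8% of all genes. The call was lost without D10 control replicate 1, 2 or 4, D10 EAM replicate 2, 3 or 4, D15 control replicate 2, 3 or 4, or D15 EAM replicate 2, with adjusted p between 0.0103 and 0.0157 by edgeR. Jchain had a larger difference of 5.31 with an adjusted p of 0.0109, just outside the limit. Cd79b differed by 1.64 (adjusted p = 0.0183) and Ighm by 2.28 (adjusted p = 0.0387), both by edgeR. From D15 to D21, 0 of the 7 genes were called by edgeR's quasi-likelihood test, by its likelihood ratio test, by DESeq2 or by limma-voom, and 0 had an unadjusted p under 0.05, where 40.7% of all genes did. Over all genes 2.74% were called higher and 0.919% lower. The differences were 1.06 for Igkc (standard error 1.20), 0.76 for Jchain (standard error 1.498) and -0.45 for Ighm (standard error 0.86). With such errors, changes of several fold in either direction were not detectable.

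The share of IgG among the heavy chain reads was higher in EAM than in control hearts at D15 and D21. Heavy chain constant genes follow one another on chromosome 12, and a B cell that switches class exchanges the constant part of IgM for that of IgG, IgE or IgA. Of the reads on these genes, IgG genes (Ighg1, Ighg2b, Ighg2c and Ighg3) took 2.31 ± 1.81% in D10 control and 3.28 ± 1.18% in D10 EAM hearts (SD, n = 4 each). The shares overlapped (exact permutation test, two-sided, p = 0.371). At D15 the IgG share was 14.2, 17.2, 13.9 and 16.4% in EAM hearts and between 0.398 and 1.26% in controls. All EAM hearts were above all controls (exact permutation test, p = 0.0286, the smallest that 4 against 4 can give; 0.0429 adjusted over the 3 days). At D21 it was 20.2, 25.0, 25.0 and 23.1% in EAM hearts and 0 to 1.42% in controls (exact permutation p = 0.0286, adjusted 0.0429). The lowest control had 0 of 396 reads, with a Wilson 95% interval up to 0.961%. At D15 and at D21 the share ranged over 1.24-fold among the EAM hearts, where the summed heavy chain reads ranged from 605 to 7262 and from 648 to 7121. The shares of a day were still not all equal within counting error, since at D15 the Wilson 95% interval of replicate 1, 12.6 to 16.0%, lay below that of replicate 2, 16.4 to 18.1%. At D10 the EAM shares ranged over 2.69-fold, on 6 to 17 IgG reads per heart. The intervals cover counting error only. Control hearts held Ighm reads as well, 243 to 317 at D15 and 341 to 429 at D21. Ighm was at 1.24-fold of the control mean in D15 EAM replicate 3 and at 1.05-fold in D21 EAM replicate 3. The share is therefore one of reads, in which IgM reads found also in controls are counted, and not one of cells.

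**Figure D3:**
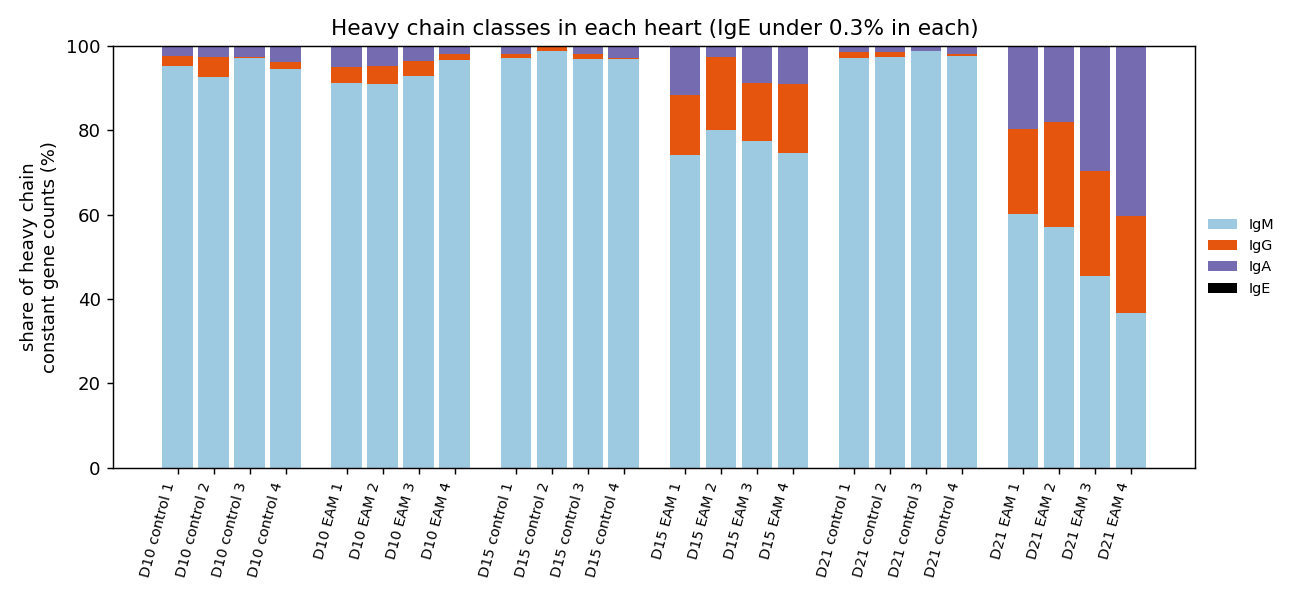
Share (%) of heavy chain constant gene counts on IgM, IgG, IgA and IgE genes in each of the 24 hearts, as stacked bars from 0 to 100%. IgM takes at least 91.0% in all control and D10 EAM hearts, 74.1 to 80.2% in D15 EAM hearts and 36.6 to 60.05% in D21 EAM hearts.

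Ighg1, the gene of the class favoured by interleukin 4, had the most reads of the IgG genes in the table, which do not include the IgG2a gene of Balb/c mice. It had 178, 1095, 55 and 355 reads in the D15 EAM hearts, which was 65.5 to 87.5% of their IgG reads, and 1 to 4 in the D15 controls (log2 fold change 6.94, adjusted p = 3.9e-04, edgeR). At D21 it had 1014, 174, 128 and 254 reads against 0 to 4. Igha, the gene of the class of mucosal surfaces, had 186, 168, 53 and 252 reads at D15 and 1406, 166, 191 and 607 at D21, against 1 to 8 in the controls of these days. At both days Ighg1, Ighg2b and Igha passed the filter through EAM hearts alone. The log2 fold change of Igha was 4.55 at D15 (adjusted p = 7.3e-05) and 6.81 at D21 (adjusted p = 0.00469), both by edgeR. Ighg2b was induced at both days as well, while Ighg2c, Ighg3, Ighe and Iglc2 had too few reads to be tested at either day. Ighg2c had 9 to 50 reads in D15 EAM hearts, 6 to 112 in D21 EAM hearts and 0 in all controls. Balb/c mice carry an IgG2a gene where the reference carries Ighg2c, so that part of these reads may be missing and the IgG share is a lower value. Ighe, the gene of IgE, had 19 reads in D15 EAM replicate 2, 1 to 3 in 4 other EAM hearts and 0 in all the rest. The gene of IgD is not analysed here.

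The balance between IgA and IgG, set apart after its values were seen, differed between hearts. IgA made up 11.8% of the IgA and IgG reads in D15 EAM replicate 2, between 35.4 and 45.0% in the 3 other D15 EAM hearts and 49.5, 41.6, 54.1 and 63.6% in the D21 EAM hearts. The Wilson 95% interval of D15 EAM replicate 2, 10.3 to 13.6%, lay below those of all other EAM hearts of both days. The means, 32.7 ± 14.5% and 52.2%, did not differ past 0.05 (exact permutation p = 0.0571), and at D21 the library code differed as well. Reads of IgG2a that may be missing would make each of these IgA shares too high, by an amount that is not known.

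There was more light chain RNA per IgM heavy chain RNA in EAM hearts from D15 on. There were 0.379, 0.426, 0.192 and 0.414 Igkc reads per Ighm read in D15 EAM hearts, 0.446 to 0.885 in D21 EAM hearts, and 0.0351 to 0.142 in all 16 other hearts. This ratio needs no scaling between libraries. All EAM hearts of D15 and D21 were above all controls of their day, also a comparison chosen after the values were seen (exact permutation p = 0.0286 at each day, 0.0571 adjusted over 4 such comparisons). At D10 the means of 0.112 and 0.0962 overlapped (exact permutation p = 0.429). The mean ratio of the controls was 0.0706 ± 0.0268 (SD, n = 4) at D15 and 0.0421 ± 0.00755 at D21.

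**Figure D4:**
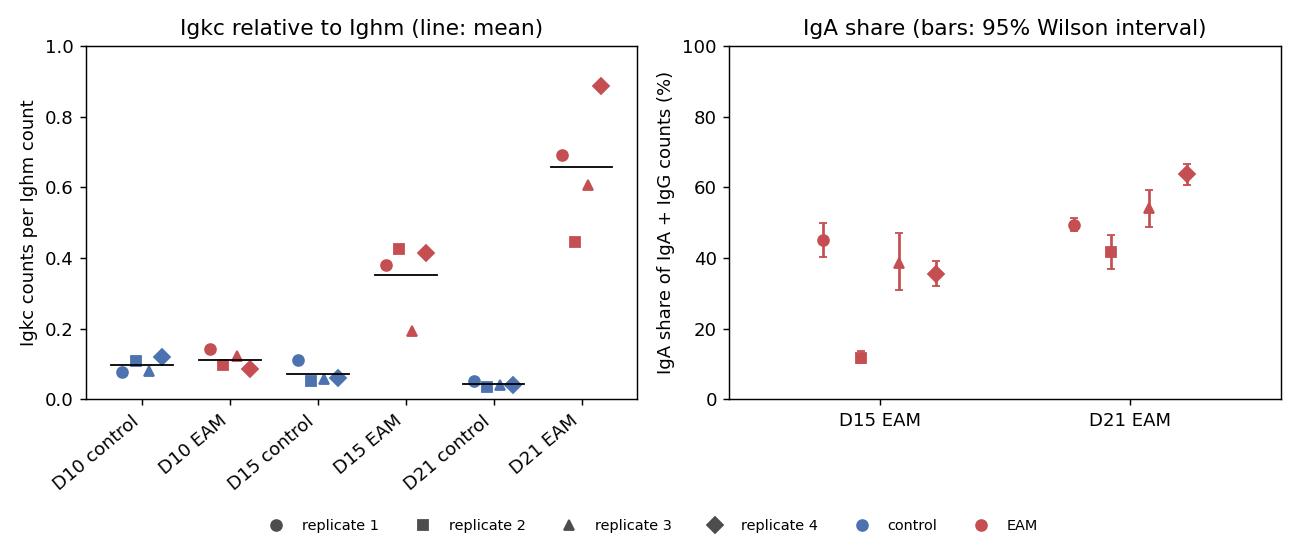
Left, Igkc counts per Ighm count in each heart with a line at the group mean. Right, IgA share (%) of IgA and IgG counts in the EAM hearts of D15 and D21 with 95% Wilson intervals. The ratio is at or below 0.142 in all controls and D10 EAM hearts and between 0.192 and 0.885 in the EAM hearts of D15 and D21, and D15 EAM replicate 2 has the lowest IgA share, 11.8%.

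Variable genes, which encode the part of the antibody that binds antigen, were read at 102 to 3036 counts in the EAM hearts of D15 and D21 and at 11 to 61 counts in all others. Reads fell on many genes. Thinned to 102 reads, the depth of the poorest of these 8 hearts, between 49.4 and 59.0 of the 214 variable genes in the table were detected per heart. The most read variable gene of a heart took 4.90 to 12.1% of all its variable reads in these 8 hearts. The highest share was that of Igkv1-117 in D21 EAM replicate 3, 21 of 173 reads (Wilson 95% interval 8.08 to 17.8%), and Iglv1 led in D21 EAM replicate 1 with 288 of 3036 reads (9.49%). The 2 kappa genes described next are examples from the hearts with the most reads. Igkv4-58 took 298 of 1947 kappa variable reads in D15 EAM replicate 2, that is 15.3% (Wilson 95% interval 13.8 to 17.0%). It had 5 of 1985 in D21 EAM replicate 1 and at most 2 reads in any other heart. Igkv8-27 took 281 of 1985 kappa variable reads in D21 EAM replicate 1, or 14.2% (interval 12.7 to 15.8%), 52 in D15 EAM replicate 2 (2.67%) and at most 6 in any other. With 7 to 40 kappa variable reads, the D10 and control hearts had too few to compare this share, as in 1 D21 control with 2 of 13 reads (interval 4.33 to 42.2%). These 2 genes were picked after their values were seen. The end of Igkv4-58 is shown beside that of its closest relative in the annotation, to show how alike the genes of this family are. The whole genes are 91.4% identical in the GENCODE M21 transcripts of the C57BL/6 reference, and capitals mark the bases in which the aligned ends differ.
Igkv4-58, chr6:69500254-69500786, minus strand, last 120 bases: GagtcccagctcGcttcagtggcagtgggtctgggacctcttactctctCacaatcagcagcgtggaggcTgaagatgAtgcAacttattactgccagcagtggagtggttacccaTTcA
Igkv4-81, chr6:68990758-68991294, minus strand, last 120 bases: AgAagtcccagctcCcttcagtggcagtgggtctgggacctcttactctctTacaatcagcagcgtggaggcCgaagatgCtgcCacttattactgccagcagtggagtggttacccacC
Of the 284 stretches of 75 bases in Igkv4-58, 10 also occur in Igkv4-74 or Igkv4-75 (3.52%) and none in Igkv4-81, and none of those of Igkv8-27 occur in another gene. Antibody genes mutate and Balb/c mice differ from the reference, so that these counts name the closest reference gene and not a clone.

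The other genes of the B cell receptor and its partners were also largely induced at D15, and many of them are read in myeloid cells too. Of 14 genes of coreceptors and the B cell surface, 11 were tested and 9 were induced, against 18.1% of all genes, with a median log2 fold change of 2.68 where that of all genes was 0.016. Among others, Cd22, Siglecg, Fcrla and Fcrl1 passed the filter through EAM hearts alone, as no D15 control reached 10 reads. Cd22, an inhibitory receptor, was at 14.3, 18.5, 3.56 and 15.1 CPM in EAM hearts and at 0.059 to 0.26 CPM in controls (log2 fold change 6.50, adjusted p = 2.6e-05, edgeR). Cd180, a Toll-like receptor relative, rose by 4.22, Siglecg by 3.32 and Cd37 by 3.18 on the log2 scale. Of 18 genes of receptor signalling, 13 were induced (18.1% of all genes) and 2 repressed (12.9% of all genes), Rasgrp3 and Bank1. Ptpn6 rose by 3.90, Btk by 3.89 and Pik3cd by 3.11, and these act in T or myeloid cells as well. The median was 2.30, and Blk overlapped the controls at 1.13-fold of their mean.

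Among 11 transcription factors of the B lineage, 5 were induced at D15, again against 18.1% of all genes (Spib, Irf8, Ikzf1, Ikzf3 and Pou2f2), with log2 fold changes from 1.43 for Pou2f2 to 4.79 for Spib. Pou2af1, a coactivator of immunoglobulin genes, tested through EAM hearts alone, was read 127 times in EAM replicate 2, 12 to 34 times in the 3 others and 4 to 8 times in controls, and did not pass (log2 fold change 2.22, adjusted p = 0.0213, edgeR). Ebf1, which specifies the lineage, had a log2 fold change of -0.54, short of 2-fold. Of 18 plasma cell and secretion genes, 16 were tested and 10 were induced (18.1% of all genes), with a median of 1.13. The largest were Slamf7 (5.08), Sdc1 (3.36), Tnfrsf13b (3.23) and Fkbp11 (2.56). Spib and Slamf7 had no control heart with 10 reads at D15 or D21, so that they were tested because of their level in EAM hearts. Sdc1 encodes CD138, which marks plasma cells and is also made by epithelial cells and fibroblasts. It ranged over 52.6 to 138 CPM in the EAM hearts, far less than Jchain did. The 18 genes summed to 1818, 1765, 1914 and 1718 CPM in D15 EAM replicates 1 to 4, and to 1041 to 1162 CPM in controls. Their sum was highest in replicate 3, the heart lowest in Igkc, and Hspa5 alone averaged 737 CPM of it. This sum ranged over 1.11-fold among the EAM hearts, that of the transcription factors over 1.12-fold and that of the signalling genes over 1.15-fold. Tnfrsf17, which encodes the receptor BCMA of plasma cells, had 0 to 2 reads in D15 EAM hearts, 1 to 4 in D21 EAM hearts and 0 to 9 in controls. Tnfrsf17, a defining marker of plasma cells, was therefore at or near 0 in hearts whose Igkc was induced. Other plasma cell genes differed from it. Jchain was induced at both days and Sdc1 at D15, while Mzb1 passed at neither. Derl3, a further gene of this list, had too few reads to be tested at either day. The 4 EAM hearts averaged 0.564 CPM of Derl3 at D15, each above all controls, whose mean was 0.126 CPM. By D21 its groups overlapped, with means of 0.421 CPM for EAM and 0.157 CPM for controls.

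At D21, 5 of 7 coreceptor and surface genes tested were induced (median 2.38), 7 of 18 signalling genes (median 1.45), 5 of 10 transcription factors (median 0.65) and 2 of 16 secretion genes (median 0.78), where 4.13% of all genes were induced and their median was -0.0064. Cd22 had the largest change of the surface genes on both days, with 5.92 at D21 (adjusted p = 0.00264, edgeR). As at D15, Cd22 and Siglecg passed the filter at D21 through EAM hearts alone. The secretion genes induced were Slamf7 and Tnfrsf13b. Germinal centre genes gave 4 calls among 6 tested at D15 (18.1% of all genes), Cxcl13, Gcsam, S1pr2 and Cxcr5, of which Gcsam was tested through EAM hearts alone, and 0 at D21 (4.13% of all genes) by edgeR's quasi-likelihood test, where 3 had an unadjusted p under 0.05. The change of the EAM effect between these days was not called for any of the 6. Cxcl13, the chemokine that draws B cells into follicles, averaged 51.6 ± 13.1 CPM (SD, n = 4) in EAM hearts of D15, against 1.66 ± 1.11 CPM in the controls. Its EAM hearts ranged over 1.75-fold at D15, where those of Igkc ranged over 22.8-fold. The cytokine genes Tnfsf13b (BAFF) and Tnfsf13 (APRIL), which keep B and plasma cells alive, were induced at D15 by 2.45 and 1.72 on the log2 scale, and so was their receptor gene Tnfrsf13b, whose call was the only one of the 3 at D21.

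Markers of other cell types moved with these results. At D15, 11 of 12 T cell markers and 7 of 8 macrophage markers were induced, where 18.1% of all genes were, and at D21 10 of 11 and 3 of 8, where 4.13% were. Of these, Cd8a and Cd5 at both days and Cd8b1 and Cd2 at D15 had no control heart with 10 reads and were tested through EAM hearts alone. Of 7 plasmacytoid dendritic cell markers, 4 were induced at D15, and Ccr9 and Klk1 of the 7 were tested through EAM hearts alone. Such cells also express Spib and Irf8. Of 8 precursor B cell genes, 2 could be tested at D15 and Il7r, which T cells express as well, was induced. Of 6 cardiomyocyte markers, 3 were lower at D15 (12.9% of all genes), Actc1, Myl2 and Tnni3. Their summed level was 8164, 5484, 15091 and 8950 CPM in D15 EAM replicates 1 to 4 and 20626 to 24033 CPM in the D15 controls. It was lowest in replicate 2 and highest in replicate 3, the hearts highest and lowest in Igkc. At D21 the sum was 13491, 18566, 24769 and 10638 CPM in EAM replicates 1 to 4, lowest in replicate 4 and not in replicate 1, which had the most Igkc. The part of other cell types in the levels of the genes described was not tested. Of the defining markers of immature lymphocytes, Rag1 and Rag2 were at or near 0, with 0 reads of Rag2 in all 24 hearts and at most 3 of Rag1. Dntt, another such marker, differed from them, with 3 to 18 reads in D15 EAM hearts, 2 to 10 in D21 EAM hearts and at most 2 elsewhere. Markers of lymph node stroma summed to at most 2.77 CPM in any heart. Glycam1, made by the high endothelial venules of lymph nodes, had 31 reads in D15 EAM replicate 2 and at most 4 in any other heart, and Ccl19 had 55 reads in D15 EAM replicate 1 and at most 3 in any other. The part of lymphoid tissue in these hearts was not tested.

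Outside the 8 genes themselves, among the 5 genes whose pattern over the 24 hearts was most like that of Cd79a, by Pearson's r of log2(CPM + 1) over 16318 genes, were Cd5l (0.858), Mnd1 (0.854) and Derl3 (0.850). Cd3e of T cells came only at rank 1618 (0.5). For Jchain the 5 outside the 8 genes were Ighg1 (0.979), Ighg2b (0.971), Cemip (0.964), Iglv1 (0.957) and Apoe (0.953), and Cd3e was at rank 641 (0.819). Among the 8 genes themselves, Jchain followed Igkc (0.988) and Ighm (0.933) more closely than Cd79a (0.683) or Ms4a1 (0.717), and Cd79a followed Ms4a1 most closely (0.911). These values share the libraries and their groups, and Cd79a and Ms4a1 were above 2 CPM in 2 of the 24 hearts.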

How the data were processed

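Directional mRNA libraries of 24 mouse hearts were sequenced as read pairs. The authors aligned them to GRCm38 with HISAT2 2.0.4, removed duplicates with Picard, and deposited raw counts per Ensembl gene from featureCounts. The tables of single samples and of all samples differed in 0 cells. The 92 spike-in features had 0 reads. Groups came from the sample labels, and hearts are separate mice.

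For each day, genes reaching 10 reads in 4 or more of the 8 libraries were kept, scaled by TMM and tested with the quasi-likelihood test of edgeR 4.0.16 in R 4.3.3. Benjamini-Hochberg adjustment ran over all genes kept. Differences between days were contrasts in a fit of 24 libraries. The scripts were tested on simulated data. Alternatives were other tests (limma 3.58.1, DESeq2 1.42.0), scalings, filters, controls, a replicate block, and leaving out each library. The members, the lists and the genes to name (for a list, up to 4 of the largest called changes, and the 5 genes most like Cd79a or Jchain) were chosen with earlier results of these data known. Genes outside this rule, such as Pou2af1, Glycam1, Ccl19 and the variable genes, were named after their values were seen, and some genes that the rule names are not reported here. Shares carry Wilson 95% intervals.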

Additional observations from a re-analysis of the deposited data

Results flagged for a closer look

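In 11 of 54 sets of 4 hearts, 1 heart lay apart from the other 3 by Dixon's criterion, which chance meets in about 1 of 20 sets, and sets of genes that move together are not independent. Of these, 7 concern EAM hearts. D21 EAM replicate 1 was the highest in Cd79a (2.89 CPM), Ms4a1 (2.09 CPM), Ighm (213 CPM), Igkc (147 CPM) and Jchain (54.9 CPM), and D15 EAM replicate 2 was the highest in Ms4a1 (3.51 CPM). The IgG share of D10 EAM replicate 4, 1.54% of 390 reads, lay below the other 3. Control hearts stood apart in Ighm at D10 (replicate 1, 23.2 CPM) and D21 (replicate 4, 21.9 CPM), and D15 control replicate 1 was the highest of its group in Igkc (1.83 CPM) and Jchain (0.522 CPM). The part of any of these hearts' other content in these values was not tested.

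The EAM effect on Igkc was larger at D15 than at D10 by 4.51 on the log2 scale, by the test of the difference itself (adjusted p = 0.00619, edgeR's quasi-likelihood test). All 4 EAM hearts were above all controls at D15, and 2 of 4 at D10.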

How the results depend on the processing

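Counts of called genes among the 8 kept within 1.5 times of their value under most alternatives. limma-voom gave 0 calls at D15, at D21 and for the difference between D10 and D15, where edgeR's quasi-likelihood test gave 4, 2 and 1. With all 12 control hearts, 5 genes were called at D21. For the difference between D10 and D15, the likelihood ratio test and DESeq2 gave 2 calls each and a limit of 0.05 gave 4. With 1 library left out, the calls ranged from 2 to 4 at D15, from 0 to 2 at D21 and from 0 to 3 for that difference, and were 0 throughout at D10 and between D15 and D21. Leaving out a library takes samples from a test near its limit. The difference in IgG share was 0.312 to 1.75 percentage points at D10, 14.0 to 15.1 at D15 and 22.0 to 23.6 at D21 with 1 library left out, and 20.6 at D21 with reads summed over hearts, a sum in which replicate 1 weighs most. With the replicate number as a block, calls were 0 at D10, 3 at D15, 2 at D21, 2 for D15 against D10 and 0 for D21 against D15. The labels do not say that a number pairs hearts, and same-numbered hearts correlated over 0.1 in their deviations in 2 of 4 pairs at D10, 0 at D15 and 3 at D21, so that the numbers were not taken as pairs.

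Reversed directions concern differences that did not pass the test. The D10 log2 fold change of Cd79b, -0.0092, was 0.0037 with DESeq2 and with its size factors in edgeR, 0.044 with total counts, 0.0024 without the filter, 0.0027 with all 24 samples, 0.34 with 12 controls, and between -0.12 and 0.11 with 1 library left out. The D15 against D10 difference of Mzb1 was between -0.23 (without D15 EAM replicate 2) and 0.60 with 1 library left out. For D21 against D15 with 1 library left out, the differences ranged from -1.47 to 0.62 for Cd79a, -0.55 to 0.18 for Cd79b, -1.64 to 1.18 for Ms4a1, -1.91 to 0.36 for Ighm, -0.46 to 1.98 for Igkc, -0.82 to 1.83 for Jchain and -0.27 to 1.12 for Mzb1. The ends nearest the other sign came without D15 EAM replicate 2 or D21 EAM replicate 1. The cause was not tested. Depth limits Pax5, Ms4a1 and Tnfrsf17, whose reads were too few for a test within a day.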
